A study of Homo sapiens with 12 samples.

Results

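The IL1 family genes described here are 10 genes for secreted interleukins, their antagonists and their receptors: IL1A, IL1B, IL1RN, IL36G, IL36RN, IL1R1, IL1R2, IL1RAP, IL33 and IL18. They were taken by name, and every probe set (a group of short probes read as 1 value) whose only gene symbol in the platform annotation was one of these names was included. That gave 19 of the 54675 probe sets on the array and 10 of the 19775 genes tested. IL1RN had 5 probe sets, IL1A, IL1B, IL1R1, IL1R2 and IL1RAP had 2 each, and IL36G, IL36RN, IL33 and IL18 had 1 each. All 10 genes and all 19 probe sets were tested, since no filter on low signals was applied. Where a gene had several probe sets, the brightest one over the 12 arrays stood for the gene, and the others are given beside it.

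MCF-10A is an established human mammary epithelial line that does not form tumours. In every group the cells were infected with a retrovirus and RNA was taken 48 h later, so the vector cells went through infection too. The NICD group (3 arrays) received the free intracellular domain of NOTCH1, to whose sample descriptions "gfp" is added with no further account. The Notch1 L1601P+∆P group (3 arrays) received a receptor with an amino acid substitution in the domain that holds its subunits together and a deletion of the degradation-controlling PEST region. The full-length group (3 arrays) received wild-type full-length Notch1, and the control group (3 arrays) received the vector alone. The sources used here do not give the promoter of the virus, the share of infected cells or any selection. Replicates are called biological with no account of how separately they were cultured, so the p-values refer to the spread among these 12 samples, which may be technical.

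The IL1 family works through matched ligands and receptors. IL-1 alpha and IL-1 beta bind the receptor IL1R1, which then draws in the accessory chain IL1RAP and signals through MYD88 and the IRAK kinases to NF-kB and MAP kinases. IL1RN is an antagonist that occupies IL1R1 without drawing in IL1RAP, and IL1R2 is a decoy that binds ligand and does not signal. IL-18, IL-33 and the IL-36 cytokines use their own receptors of the same family, and epithelial cells hold IL-1 alpha and IL-18 as precursors that are released on damage or after cleavage.

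Promoter windows are printed for the 3 genes that rose most with NICD (IL1R1, IL1RN and IL1R2) and for the pair of IL-1 ligands, since these genes carry the results. Each window runs from 250 bases before to 50 bases after a transcript start in RefSeq (build GRCh38.p14), 5′ to 3′ on the gene's own strand, and all 5 lie on chromosome 2. The IL1R1 window is chr2:102104354-102104653 (plus strand) and the IL1RN window is chr2:113127239-113127538 (plus strand). Both lie inside their genes, before a start that is not the outermost one. The IL1R2 window is chr2:101991710-101992009 (plus strand), the IL1A window chr2:112784444-112784743 (minus strand) and the IL1B window chr2:112836730-112837029 (minus strand), each at the gene's outermost start. Capitals mark matches, on either strand, to 3 motifs: TGGGAA, the core bound by RBPJ (the DNA-binding partner of NICD), TGANTCA, bound by AP-1, and the NF-kB consensus.
IL1R1: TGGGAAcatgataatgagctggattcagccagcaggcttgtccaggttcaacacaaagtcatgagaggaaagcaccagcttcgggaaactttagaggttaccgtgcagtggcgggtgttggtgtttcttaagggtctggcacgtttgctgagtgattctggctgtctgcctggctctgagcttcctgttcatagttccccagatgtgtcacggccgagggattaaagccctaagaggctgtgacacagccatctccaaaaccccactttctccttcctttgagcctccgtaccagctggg
IL1RN: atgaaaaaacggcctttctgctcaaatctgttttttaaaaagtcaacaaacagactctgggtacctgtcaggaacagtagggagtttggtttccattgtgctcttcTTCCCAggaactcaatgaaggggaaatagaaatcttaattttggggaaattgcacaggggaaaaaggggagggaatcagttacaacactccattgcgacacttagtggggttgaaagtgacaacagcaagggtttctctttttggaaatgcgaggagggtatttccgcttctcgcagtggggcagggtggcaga
IL1R2: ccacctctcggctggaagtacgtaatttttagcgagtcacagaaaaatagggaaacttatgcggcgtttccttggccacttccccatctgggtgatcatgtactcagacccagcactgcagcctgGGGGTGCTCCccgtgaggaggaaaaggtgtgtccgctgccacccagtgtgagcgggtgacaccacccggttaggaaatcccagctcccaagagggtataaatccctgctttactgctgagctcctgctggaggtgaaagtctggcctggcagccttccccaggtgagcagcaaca
IL1A: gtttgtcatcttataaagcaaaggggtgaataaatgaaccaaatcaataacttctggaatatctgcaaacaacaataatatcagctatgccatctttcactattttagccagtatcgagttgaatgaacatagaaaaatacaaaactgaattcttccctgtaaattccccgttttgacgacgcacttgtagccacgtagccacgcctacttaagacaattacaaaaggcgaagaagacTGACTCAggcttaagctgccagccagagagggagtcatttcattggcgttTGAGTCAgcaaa
IL1B: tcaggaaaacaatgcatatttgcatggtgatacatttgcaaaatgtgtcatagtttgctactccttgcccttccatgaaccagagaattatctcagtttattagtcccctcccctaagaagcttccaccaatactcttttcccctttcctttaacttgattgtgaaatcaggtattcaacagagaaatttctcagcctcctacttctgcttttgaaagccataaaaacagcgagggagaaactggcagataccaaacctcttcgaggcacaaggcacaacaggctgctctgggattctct

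RefSeq lists 4 windows for IL1R1 and 3 for IL1RN, and those printed were picked because they hold an RBPJ core, which the other 3 and the other 2 do not. The unprinted IL1RN window at chr2:113127348-113127647 overlaps the printed one and begins within its RBPJ match. The printed IL1R1 and IL1RN windows each hold 1 RBPJ core, the IL1A window 2 AP-1 motifs, the IL1R2 window 1 NF-kB consensus, and the IL1B window none of the 3. RefSeq listed 18 windows for 9 of the 10 genes, and none was used for IL18. Over those 18, the RBPJ core was in 3 windows (IL1R1, IL1RN and IL36RN), AP-1 in 3 (both IL1A windows and another IL1RN window) and the NF-kB consensus in 2 (IL1R2 and IL36RN). The IL1A windows overlap and hold the same 2 AP-1 motifs, so these windows are not separate promoters. Among all 35116 windows of the RefSeq table, 24% held the RBPJ core, 7.71% the AP-1 motif and 11.3% the NF-kB consensus. A match is a description of the letters, and the 3 motifs were found both in windows of genes that rose and in windows of genes that did not.

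The median log2 signal of an array was 5.64 to 5.70, and replicates of a group correlated at 0.995 or more. Precision is limited by having 3 arrays in a group. Of the 2 NOTCH1 probe sets, the dimmer one read 8.79 with NICD, 8.74 with Notch1 L1601P+∆P and 9.16 with full-length Notch1, against 6.54 with vector, so that it was higher in each labelled Notch1 group. The brighter one read 9.72, 9.5 and 9.52 in the same groups, against 9.44 with vector. Of 8 genes known as Notch targets, 6 rose with NICD (beside 9.54% of all genes) and 5 with Notch1 L1601P+∆P (beside 2.16%). None was called with full-length Notch1 by limma (0.0354% of all genes in either direction). There 1 of the 8 had an unadjusted p under 0.05, beside 444 higher and 609 lower of all 19775 genes. Of 8 epithelial markers 6 could be tested, and their mean lay between 12.6 and 12.8 in all groups, KRT5 and KRT14 being above 13 throughout. That mean hides moves in both directions. With NICD KRT5 (0.58) and KRT14 (0.57) rose and EGFR (-0.72), SFN (-0.36) and KRT18 (-0.24) fell. These were 5 of 6 called, beside 27.6% of all genes. With Notch1 L1601P+∆P KRT5 (0.35) and KRT14 (0.58) rose, 2 of 6 called, beside 5.12% of all genes.

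With NICD, 7 of the 10 IL1 family genes were called, 5 higher and 2 lower, where called means an adjusted p under 0.05 in limma over all 19775 genes. Over all genes, 27.6% were called in that comparison, 9.54% higher and 18.1% lower. The receptor IL1R1 rose most, by 2.88 ± 0.056 on the log2 scale (7.38-fold), followed by the antagonist IL1RN (1.28 ± 0.12, 2.44-fold), the decoy IL1R2 (0.99 ± 0.10, 1.99-fold), the ligand IL1B (0.51 ± 0.078, 1.42-fold) and the accessory chain IL1RAP (0.50 ± 0.061). The ligands IL1A and IL18 fell, by 0.72 ± 0.071 and 0.73 ± 0.069. IL36G, IL36RN and IL33 were not called. With Notch1 L1601P+∆P, 2 of the 10 were called, IL1B and IL1R1, both higher, beside 5.12% of all genes (2.16% higher, 2.95% lower). With full-length Notch1 none of the 10 was called by limma, beside 0.0354% of all genes. At an unadjusted p under 0.05 stood 1 of the 10 (IL1R1), beside 444 higher and 609 lower of all 19775 genes. These 2 numbers also stand beside the later unadjusted counts of genes with full-length Notch1. These comparisons share the 3 vector arrays.

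**Figure D1:**
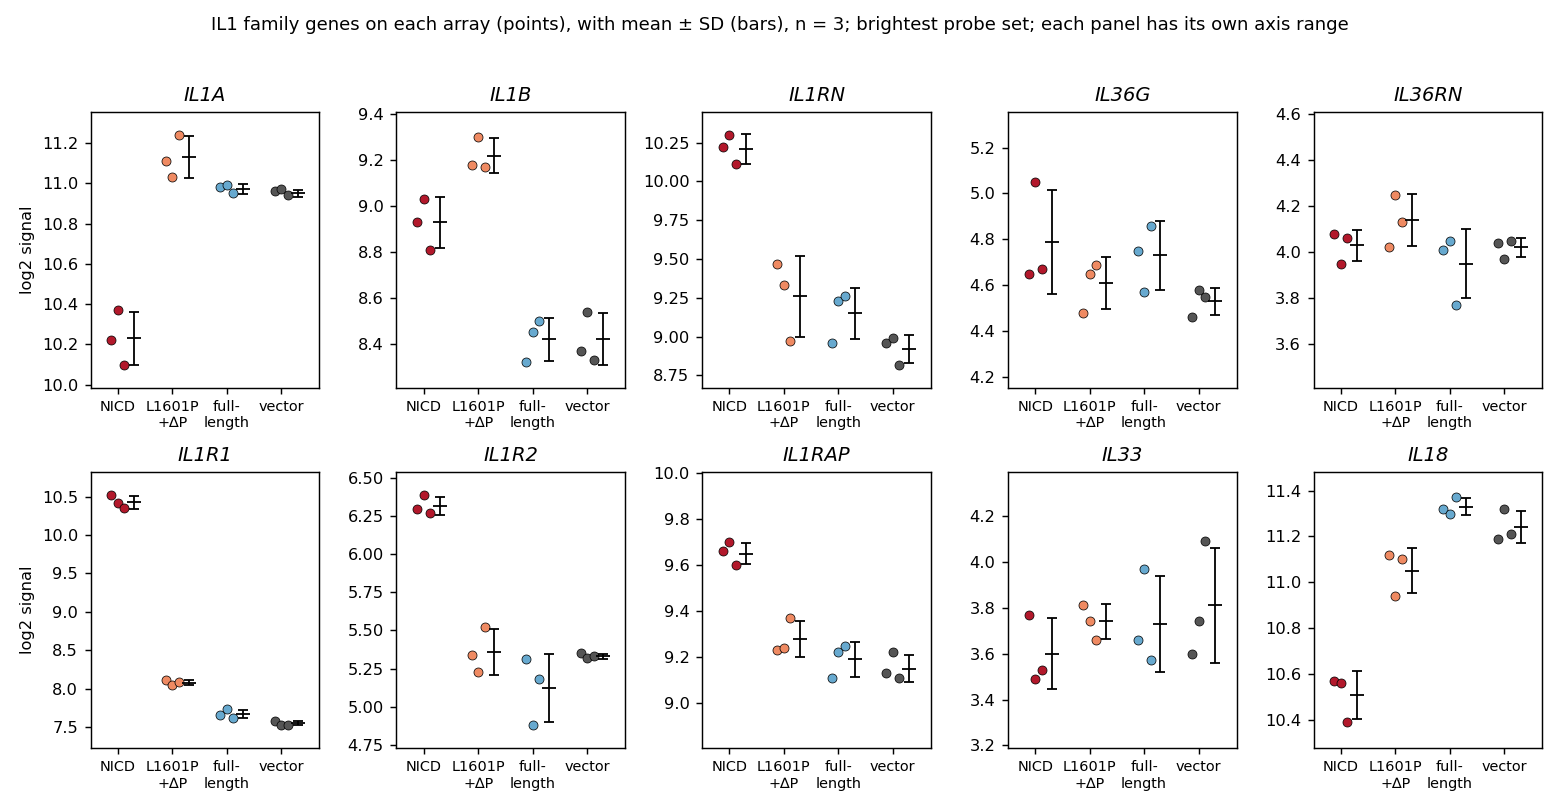
Deposited log2 signal (vertical axes, each panel with its own range) of the 10 IL1 family genes on the 12 arrays, by group from NICD on the left to vector on the right, with points for arrays and bars for the mean ± SD of 3. IL1R1 read 10.35 to 10.52 with NICD, above all other arrays, whereas IL1A and IL18 read lowest with NICD.

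IL1R1 is the signalling receptor for IL-1 alpha and IL-1 beta. Its log2 signal was 10.52, 10.42 and 10.35 with NICD, 8.11, 8.05 and 8.09 with Notch1 L1601P+∆P, and 7.66, 7.73 and 7.62 with full-length Notch1, against 7.58, 7.53 and 7.53 with vector. The groups stood in that order and no array of one overlapped the next. The difference from vector was 2.88 with NICD (95% confidence interval 2.76 to 3.0, limma adjusted p = 1.56e-12) and 0.54 ± 0.056 with Notch1 L1601P+∆P (adjusted p = 9.61e-05). With full-length Notch1 it was 0.13 ± 0.056 (adjusted p = 0.915), which was not called. NICD exceeded Notch1 L1601P+∆P by 2.35 ± 0.056 (5.09-fold, adjusted p = 2.41e-11), and Notch1 L1601P+∆P exceeded full-length Notch1 by 0.41 ± 0.056 (adjusted p = 0.00114). In the ranking of all 19775 genes by change with NICD, IL1R1 stood 63rd from the top.

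The second IL1R1 probe set was dimmer and showed the same order for NICD. It read 6.76, 6.70 and 6.61 with NICD, 5.03, 4.93 and 4.96 with Notch1 L1601P+∆P, and 4.55, 4.83 and 4.73 with full-length Notch1, against 4.83, 4.89 and 4.70 with vector. Its difference was 1.89 ± 0.080 with NICD (limma adjusted p = 2.67e-09, over every probe set) and 0.17 ± 0.080 with Notch1 L1601P+∆P (adjusted p = 0.322). The call with Notch1 L1601P+∆P thus rested on 1 of the 2 IL1R1 probe sets.

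IL1RAP, the accessory chain that IL1R1 shares with the receptors for IL-33 and IL-36, moved the same way to a smaller extent. It read 9.66, 9.70 and 9.60 with NICD, 9.23, 9.24 and 9.37 with Notch1 L1601P+∆P, and 9.11, 9.22 and 9.25 with full-length Notch1, against 9.13, 9.22 and 9.11 with vector. Only the NICD arrays stood clear of every array of the other groups. The difference from vector was 0.50 ± 0.061 with NICD (adjusted p = 3.89e-05), 0.13 ± 0.061 with Notch1 L1601P+∆P (adjusted p = 0.24) and 0.042 ± 0.061 with full-length Notch1 (adjusted p = 0.996). Its dimmer probe set differed by 0.26 ± 0.10 with NICD and was not called (adjusted p = 0.11).

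IL1R2 is the decoy that takes up IL-1 without signalling. It read 6.30, 6.39 and 6.27 with NICD, 5.34, 5.23 and 5.52 with Notch1 L1601P+∆P, and 5.31, 4.88 and 5.18 with full-length Notch1, against 5.35, 5.32 and 5.33 with vector. The NICD arrays lay above all others, the Notch1 L1601P+∆P arrays straddled the vector arrays, and the full-length arrays lay just under those of vector. Outside NICD every array read under 5.64, the lowest array median, where the summary of probes compresses differences. It rose by 0.99 ± 0.10 with NICD (adjusted p = 8.56e-06). The differences of 0.034 ± 0.10 with Notch1 L1601P+∆P (interval -0.19 to 0.25, adjusted p = 0.878) and -0.21 ± 0.10 with full-length Notch1 (adjusted p = 0.939) were not called. NICD exceeded Notch1 L1601P+∆P by 0.96 ± 0.10 (adjusted p = 1.98e-05). The second, dimmer probe set rose with NICD by 0.35 ± 0.097 (limma adjusted p = 0.0229). In it NICD overlapped Notch1 L1601P+∆P (0.12 ± 0.097, adjusted p = 0.503) and full-length Notch1 overlapped vector (-0.026).

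IL1RN, the receptor antagonist, was the second most raised gene of the family. Its brightest probe set read 10.22, 10.30 and 10.11 with NICD, 9.47, 9.33 and 8.97 with Notch1 L1601P+∆P, and 8.96, 9.23 and 9.26 with full-length Notch1, against 8.96, 8.99 and 8.82 with vector. The NICD arrays lay above all others, and each receptor form overlapped vector through 1 array. The difference from vector was 1.28 ± 0.12 with NICD (adjusted p = 3.59e-06) and 0.33 ± 0.12 with Notch1 L1601P+∆P (adjusted p = 0.134). Without replicate 3 of Notch1 L1601P+∆P, its lowest array, that difference was 0.48 and was called (adjusted p = 0.0208). With full-length Notch1 it was 0.23 ± 0.12 (adjusted p = 0.942).

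The 5 IL1RN probe sets agreed in direction with NICD. In order of brightness, their differences from vector were 1.28, 1.06, 1.03, 0.33 and 0.58 on the log2 scale, of which the fourth was not called (adjusted p = 0.0855 over all probe sets). With Notch1 L1601P+∆P none of the 5 was called. In the same order they differed from vector by 0.33, 0.37, 0.36, 0.37 and -0.061, so the dimmest went the other way.

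IL1B, the ligand that must be cleaved before it is secreted in active form, was called higher with both NICD and Notch1 L1601P+∆P and read highest with Notch1 L1601P+∆P. It read 8.93, 9.03 and 8.81 with NICD, 9.18, 9.30 and 9.17 with Notch1 L1601P+∆P, and 8.32, 8.45 and 8.50 with full-length Notch1, against 8.37, 8.54 and 8.33 with vector. The NICD and the Notch1 L1601P+∆P arrays lay above all vector arrays and did not overlap each other, while full-length Notch1 overlapped vector. The difference from vector was 0.51 ± 0.078 with NICD (adjusted p = 0.000291), 0.80 ± 0.078 with Notch1 L1601P+∆P (1.74-fold, adjusted p = 5.59e-05) and 0.0094 ± 0.078 with full-length Notch1 (interval -0.16 to 0.18).

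The second IL1B probe set differed from vector by 0.54 ± 0.070 with NICD and 0.71 ± 0.070 with Notch1 L1601P+∆P, and both were called over all probe sets (adjusted p = 9.04e-05 and 0.00011). The direct comparison of NICD with Notch1 L1601P+∆P gave -0.29 ± 0.078 for the brighter probe set (adjusted p = 0.0188), which was called, and -0.16 for the second (adjusted p = 0.171), which was not. The call for the brighter probe set was lost without replicate 3 of NICD (adjusted p = 0.0784) or without replicate 2 of Notch1 L1601P+∆P (adjusted p = 0.0785).

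IL1A encodes IL-1 alpha, which is active as a precursor and acts as an alarm signal of epithelia. It read 10.22, 10.37 and 10.10 with NICD, 11.11, 11.03 and 11.24 with Notch1 L1601P+∆P, and 10.98, 10.99 and 10.95 with full-length Notch1, against 10.96, 10.97 and 10.94 with vector. The NICD arrays lay below all others, and the Notch1 L1601P+∆P arrays lay above all vector arrays. IL1A fell by 0.72 ± 0.071 with NICD (1.65-fold lower, adjusted p = 5.88e-06), whereas the difference of 0.17 ± 0.071 with Notch1 L1601P+∆P was not called (adjusted p = 0.183). NICD stood 0.90 ± 0.071 under Notch1 L1601P+∆P (1.86-fold lower, adjusted p = 1.32e-06). With full-length Notch1 the difference from vector was 0.018 ± 0.071 (interval -0.14 to 0.17).

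The second IL1A probe set lay below the array medians. It read 4.61, 4.61 and 4.89 with NICD, 5.29, 5.34 and 5.16 with Notch1 L1601P+∆P, and 5.01, 4.65 and 4.79 with full-length Notch1, against 4.96, 4.95 and 4.97 with vector. Here NICD overlapped full-length Notch1 (-0.12 ± 0.098, limma adjusted p = 0.49). No difference from vector was called over all probe sets (-0.26 with NICD, adjusted p = 0.0897, 0.30 with Notch1 L1601P+∆P, adjusted p = 0.155, and -0.14 with full-length Notch1, adjusted p = 0.986). When the 2 probe sets were averaged, the difference with Notch1 L1601P+∆P was 0.24 and was called (adjusted p = 0.0195).

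IL18, a ligand that is released after cleavage by caspase-1, had the second bright signal that fell with NICD. It read 10.57, 10.56 and 10.39 with NICD, 11.12, 10.94 and 11.10 with Notch1 L1601P+∆P, and 11.32, 11.30 and 11.37 with full-length Notch1, against 11.19, 11.32 and 11.21 with vector. The NICD arrays lay below all others and the Notch1 L1601P+∆P arrays just below those of vector. The difference from vector was -0.73 ± 0.069 with NICD (1.66-fold lower, adjusted p = 3.88e-06), -0.19 ± 0.069 with Notch1 L1601P+∆P (adjusted p = 0.143) and 0.089 ± 0.069 with full-length Notch1 (adjusted p = 0.989). NICD stood 0.55 ± 0.069 under Notch1 L1601P+∆P (adjusted p = 8.96e-05). In these bulk samples, fewer cells that express a gene and less RNA per cell cannot be told apart.

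The remaining members were dim. IL36G, an epithelial IL-36 ligand, read 4.65, 5.05 and 4.67 with NICD and 4.46, 4.58 and 4.55 with vector, a difference of 0.26 ± 0.11 whose arrays did not overlap but which was not called (adjusted p = 0.0986). IL36RN, the antagonist of the IL-36 receptor, differed from vector by 0.011 with NICD, 0.12 with Notch1 L1601P+∆P and -0.074 with full-length Notch1. IL33, a nuclear alarm cytokine, differed by -0.21, -0.071 and -0.076 in the same comparisons. All signals of these 3 genes lay between 3.49 and 5.05, under the median of every array, where the summary of probes compresses differences.

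**Figure D2:**
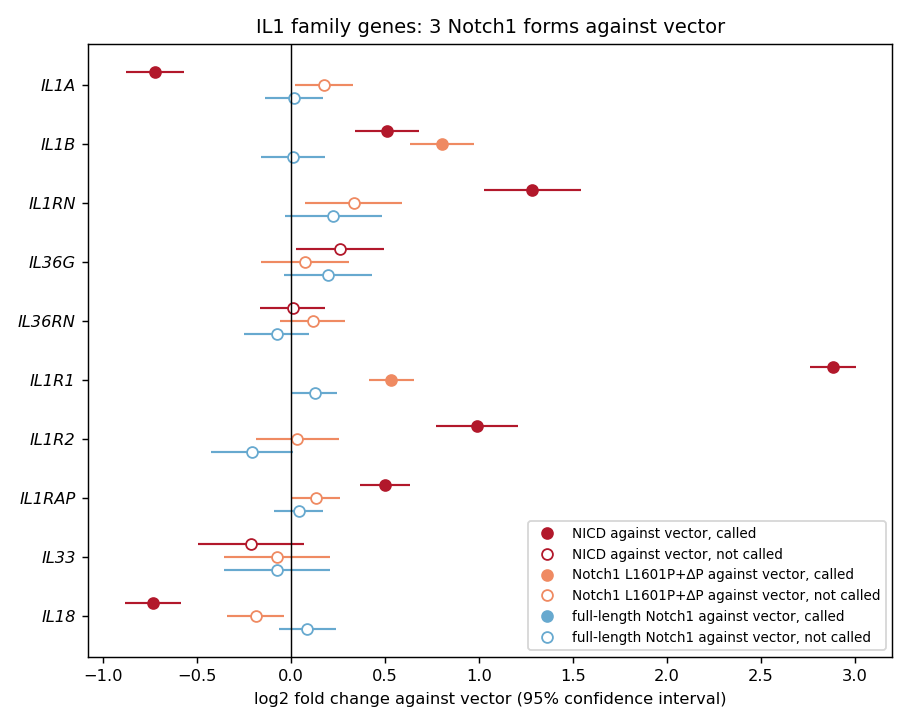
Log2 fold change against vector (horizontal axis) of the 10 IL1 family genes with NICD, Notch1 L1601P+∆P and full-length Notch1; bars are 95% confidence intervals and filled points were called at an adjusted p under 0.05 in limma. IL1R1 with NICD (2.88) lies farthest from 0, and IL1A lies left of 0 with NICD (-0.72) and right of it with Notch1 L1601P+∆P (0.17, not called).

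The median log2 difference from vector of the 10 genes was 0.38 with NICD, 0.12 with Notch1 L1601P+∆P and 0.030 with full-length Notch1. The median of all genes was -0.022, -0.013 and -0.0055 in the same comparisons. Arrays did not overlap vector for 8, 5 and 2 of the 10 genes, beside 39.1%, 28.5% and 11% of all genes. NICD differed from Notch1 L1601P+∆P by a called amount in 7 of the 10 (4 higher, 3 lower), beside 19.8% of all genes (8.73% higher, 11.1% lower), and from full-length Notch1 in 7 (5 higher, 2 lower), beside 27% of all genes (10.1% higher, 17% lower). Between the receptor forms, IL1R1 and IL1B were higher and IL18 was lower with Notch1 L1601P+∆P than with full-length Notch1, 3 of 10 beside 3.72% of all genes (1.86% in each direction). The second IL1R1 probe set was not called there over all probe sets (0.27 ± 0.080, limma adjusted p = 0.133). The IL18 difference there (-0.28, adjusted p = 0.0469 over genes) passed narrowly and was not called over all probe sets (adjusted p = 0.094). It was called in 5 of the 19 alternatives tried, and the limma adjusted p reached 0.177.

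By probe set, 13 of the 19 were called with NICD, 11 higher and 2 lower, beside 19.3% of all probe sets (6.75% higher, 12.6% lower). With Notch1 L1601P+∆P 3 of the 19 were called, all higher, beside 2.39% of all probe sets (1.1% higher). With full-length Notch1 none was, beside 0.011%. There 1 of the 19 had an unadjusted p under 0.05, beside 977 higher and 1827 lower of all 54613 probe sets. All 9 member probe sets above the lowest array median (5.64) were called with NICD, 7 higher and 2 lower, and 4 of the 10 below it were, all 4 higher. Over all probe sets, 31.9% of those above that median and 6.56% of those below it were called with NICD.

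**Figure D3:**
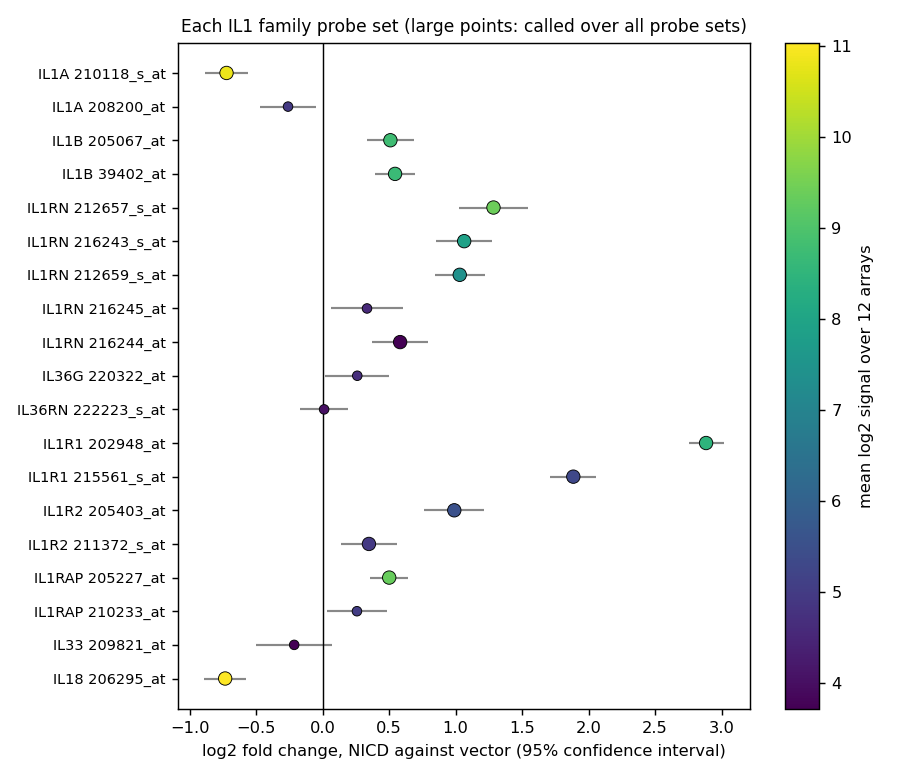
Log2 fold change of NICD against vector (horizontal axis) for each of the 19 IL1 family probe sets, with 95% confidence intervals; colour gives the mean log2 signal over the 12 arrays and large points were called over all probe sets. Probe sets of 1 gene lie on the same side of 0, and 6 of the 10 dimmest were not called.

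The order of the groups differed between genes. NICD stood highest for IL1R1, IL1RN, IL1R2 and IL1RAP and lowest for IL1A and IL18, and in each of these its difference from the next group was called. For IL1B, Notch1 L1601P+∆P stood highest and NICD next. Full-length Notch1 and vector were not called apart for any of the 10 genes. Of the genes called with NICD, IL1A, IL1RN and IL1RAP had Notch1 L1601P+∆P next to full-length Notch1 with no called difference between them.

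Most of the genes lie in clusters of the family on chromosome 2, by RefSeq gene order. The receptor cluster holds IL1R2, IL1R1, IL1RL2, IL1RL1, IL18R1 and IL18RAP, and 4 of these 6 rose with NICD and none fell, beside 9.54% of all genes higher and 18.1% lower. With Notch1 L1601P+∆P 2 of the 6 rose, beside 2.16%, and with full-length Notch1 none was called by limma, where IL1R1 and IL1RL1 had an unadjusted p under 0.05. The gene beside the cluster at its IL1R2 end, MAP4K4, was lower with NICD (-0.47) and with Notch1 L1601P+∆P (-0.30). The gene at the other end was not among the genes tested. The ligand cluster holds IL1A, IL1B, IL37, IL36G, IL36A, IL36B, IL36RN, IL1F10 and IL1RN. With NICD 2 of these 9 rose and 1 fell, together a share near the 27.6% of all genes called (9.54% higher, 18.1% lower). With Notch1 L1601P+∆P 1 of the 9 rose, beside 2.16% of all genes. Of the genes on either side of it, CKAP2L was lower (-0.39) and PSD4 higher (0.37) with NICD.

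**Figure D4:**
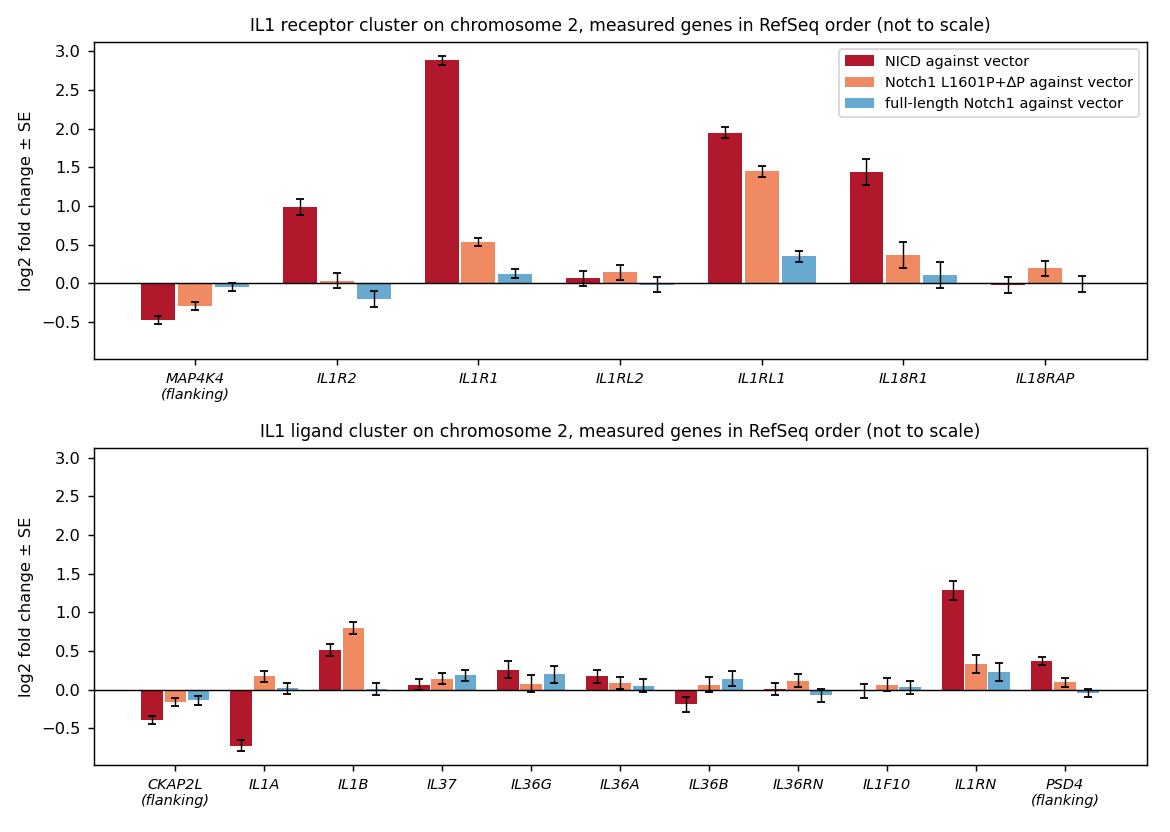
Log2 fold change ± SE against vector (vertical axes) of the measured genes of the IL1 receptor cluster (top) and ligand cluster (bottom) on chromosome 2, in RefSeq order and not to scale. Measured neighbours are marked as flanking, 1 for the receptor cluster and 2 for the ligand cluster. Tall bars stand at IL1R1, IL1RL1, IL18R1 and IL1R2 in the receptor cluster and at IL1RN, IL1A and IL1B in the ligand cluster, with shorter ones between.

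The 12 other ligands and receptors of the family held 2 genes called with NICD, both higher and both receptors of the same cluster. Over all genes 27.6% were called with NICD, 9.54% higher and 18.1% lower. With Notch1 L1601P+∆P 1 of the 12 was called, also higher, beside 5.12% of all genes (2.16% higher, 2.95% lower). IL1RL1, the receptor for IL-33, read 8.33, 8.34 and 8.30 with NICD, 7.86, 7.82 and 7.80 with Notch1 L1601P+∆P, and 6.74, 6.86 and 6.59 with full-length Notch1, against 6.34, 6.48 and 6.32 with vector. Its arrays separated all 4 groups. It rose by 1.95 ± 0.069 with NICD (adjusted p = 3.33e-10) and by 1.45 ± 0.069 with Notch1 L1601P+∆P (adjusted p = 8.12e-08), and the 0.35 ± 0.069 with full-length Notch1 was not called (adjusted p = 0.293). Of its 4 probe sets, 3 were called with NICD.

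IL18R1, the ligand-binding receptor of IL-18, read 6.05, 5.43 and 6.19 with NICD, 4.62, 4.77 and 5.06 with Notch1 L1601P+∆P, and 4.70, 4.54 and 4.44 with full-length Notch1, against 4.31, 4.57 and 4.48 with vector. The NICD arrays lay above the rest. Every array outside NICD, and the NICD array at 5.43, read under 5.64, the lowest array median, where the summary of probes compresses differences. IL18R1 rose by 1.44 ± 0.17 with NICD (adjusted p = 3.48e-05) and differed by 0.37 ± 0.17 with Notch1 L1601P+∆P, which was not called. The accessory chain IL18RAP (-0.020), the IL-36 receptor IL1RL2 (0.067), the inhibitory receptor SIGIRR (0.023) and the IL-18-binding antagonist IL18BP (-0.13) were not called with NICD, nor were IL1RAPL1, IL1RAPL2, IL36A, IL36B, IL37 and IL1F10. With full-length Notch1 none of the 12 was called by limma (2 at an unadjusted p under 0.05). The median of the 12 was 0.022 with NICD, 0.10 with Notch1 L1601P+∆P and 0.043 with full-length Notch1.

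Genes that mature or release the cytokines were called about as often as all genes. Of 24, 5 rose and 3 fell with NICD, 1 fell with Notch1 L1601P+∆P and none was called by limma with full-length Notch1 (3 at an unadjusted p under 0.05), with medians of 0.048, 0.061 and -0.018. Over all genes, 27.6%, 5.12% and 0.0354% were called in these comparisons. By direction, 9.54% rose and 18.1% fell with NICD, and 2.16% rose and 2.95% fell with Notch1 L1601P+∆P. The largest rises were those of CARD16 (0.76, adjusted p = 7.55e-05), which binds caspase-1, the inflammasome component CARD8 (0.40, adjusted p = 0.0152), CASP1 itself (0.36, adjusted p = 0.000306) and the inflammasome sensor MEFV (0.28, adjusted p = 0.00725). CARD16 and CASP1 are near-identical over the shared domain, and cross-hybridisation between them was not tested. The falls were those of the pore-forming protein GSDME (-1.04, adjusted p = 1.18e-08), S100A13 (-0.28, adjusted p = 0.00314), a carrier in IL-1 alpha export, and NINJ1 (-0.20, adjusted p = 0.0208), which ruptures the membrane of dying cells. GSDME was the gene that fell with Notch1 L1601P+∆P (-0.29, adjusted p = 0.00738).

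Of the genes that carry the signal from the receptor, 18 of 20 could be tested. With NICD 3 rose and 6 fell, with Notch1 L1601P+∆P 1 rose and 2 fell, and with full-length Notch1 none was called by limma (1 at an unadjusted p under 0.05). Over all genes, 9.54% rose and 18.1% fell with NICD, and 2.16% rose and 2.95% fell with Notch1 L1601P+∆P. The ubiquitin ligase PELI1 rose by 2.40 ± 0.081 with NICD (adjusted p = 2.22e-10) and by 0.75 ± 0.081 with Notch1 L1601P+∆P (adjusted p = 0.000132). Its dimmer probe sets were also called with NICD (1.58 and 2.20). With Notch1 L1601P+∆P they were not called over all probe sets (0.19 and 0.57, limma adjusted p = 0.694 and 0.262). The kinase MAP3K8 (1.42, adjusted p = 6.92e-07) and the adaptor MYD88 (0.16, adjusted p = 0.0281) were the others that rose with NICD. The kinase adaptor TAB3 (-0.61, adjusted p = 3.37e-06), the IkB kinase IKBKB (-0.45, adjusted p = 6.42e-05), IRAK2 (-0.37, adjusted p = 0.00622) and the kinase MAP3K7 (-0.24, adjusted p = 0.00493) had the largest falls. TAB3 (-0.26) and IKBKB (-0.25) also fell with Notch1 L1601P+∆P (adjusted p = 0.0174 and 0.0268). Medians were -0.083, -0.044 and -0.017 for NICD, Notch1 L1601P+∆P and full-length Notch1.

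Of 34 genes known to be induced by IL-1 or IL-36 in epithelia, 28 could be tested. With NICD 14 rose and 2 fell, with Notch1 L1601P+∆P 4 rose and 2 fell, and with full-length Notch1 none was called by limma, nor was any at an unadjusted p under 0.05. The shares over all genes were 9.54% higher and 18.1% lower with NICD, 2.16% higher and 2.95% lower with Notch1 L1601P+∆P, and 0.0354% called with full-length Notch1. The cytokine IL6 rose by 3.57 ± 0.086 with NICD (adjusted p = 9.81e-12), reading 8.52 ± 0.098 with NICD and 4.95 ± 0.12 with vector (SD, n = 3 each in this limma fit). The antimicrobial protein S100A7 (2.80, adjusted p = 9.84e-08), the NF-kB inhibitor TNFAIP3 (1.88, adjusted p = 2.13e-10) and the chemokine CXCL2 (1.33, adjusted p = 3.05e-09) followed. CSF3, a granulocyte growth factor (-1.17, adjusted p = 6.34e-07), and PTGES, which makes prostaglandin E (-0.97, adjusted p = 6.99e-09), fell with NICD.

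With Notch1 L1601P+∆P the induced genes that rose were CCL20 (0.53), CXCL1 (0.48), TNFAIP3 (0.47) and CXCL2 (0.30), and CSF3 (-0.39) and PTGES (-0.18) fell. Medians of the 28 genes were 0.25 with NICD, 0.12 with Notch1 L1601P+∆P and -0.027 with full-length Notch1, beside -0.022, -0.013 and -0.0055 for all genes. Many genes of this list answer to other signals than IL-1, and none of the lists was set apart by a test.

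Myeloid cells also express many of these genes, so their markers were read. Of 11, 10 could be tested, and their mean lay at 5.27 to 5.43 with NICD and 5.09 to 5.18 with vector. CD14 rose with NICD (2.59, adjusted p = 4.48e-12) and CD163 was lower (-0.27, adjusted p = 0.0389). The pan-leukocyte marker PTPRC read 3.63 with NICD and 3.63 with vector, and LYZ read 3.83 and 3.76, all near the lower end of the array's range. Other markers read higher in the same groups. CSF1R (6.22 and 6.43) and AIF1 (6.28 and 6.33) lay above every array median, and ITGAM read 5.62 and 5.43. In each of the 4 groups, 4 of the 10 had a mean above 5, CD14 among them. The mean of the 8 fibroblast markers lay at 6.28 to 6.35 with NICD and 5.66 to 5.70 with vector. POSTN (4.38) and DCN (0.36) were the 2 of 8 called, both higher. Of 5 endothelial markers 1, KDR, rose (1.05), and of 5 lymphoid markers none was called with NICD by limma. Over all genes 27.6% were called with NICD, 9.54% higher and 18.1% lower. The 1 lymphoid marker at an unadjusted p under 0.05 stood beside 2600 higher and 4589 lower of 19775 genes. The part of other cell types in the IL1 family results was not tested beyond these levels.

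The genes whose pattern over the 3 comparisons with vector was closest were sought for IL1R1, IL1RN and IL1R2, by the root mean square difference of the 3 log2 fold changes over 4 groups. ADAMTS1 (0.048) and S100A7 (0.066) lay closest to IL1R1, KCNIP3 (0.047) and MMP7 (0.063) to IL1RN, and PNLIP (0.035) and LRG1 (0.040) to IL1R2. ADAMTS1, a secreted metalloprotease, changed by 2.87, 0.60 and 0.072 with NICD, Notch1 L1601P+∆P and full-length Notch1, against the 2.88, 0.54 and 0.13 of IL1R1.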

How the data were processed

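RNA of 12 MCF-10A samples, 4 groups of 3, was read on 12 Affymetrix arrays. The values are the authors' deposited log2 signals, 1 per probe set. Per the submitters' processing notes RMA and limma were used, with versions not given in the sources used here. RMA corrects background, makes the arrays' distributions alike and summarises probes, so a shift of most genes cannot be seen and dim signals are compressed. Samples were grouped by their titles.

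One limma fit (version 3.58.1, R 4.3.3; lmFit, contrasts, eBayes) used all 12 arrays and group means, with 8 residual and 4.09 prior degrees of freedom. All 6 comparisons between groups were made, two-sided. P-values were adjusted by Benjamini-Hochberg over all 19775 genes, each with its brightest probe set, or over all 54613 probe sets other than controls, and called at an adjusted p under 0.05. Errors of differences are standard errors of the fit, and group values are given with SD. As a check of the code only, the fit was run on simulated independent values with changes in far fewer genes than were called with NICD. Gene names came from the platform annotation and promoter windows from RefSeq (GRCh38.p14).

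The members, the gene lists and the rule for naming genes were chosen with earlier results of these data known. All 10 members were named, with up to 4 called genes per direction and comparison from each list, those with the largest changes, the other receptors and antagonists whether called or not, and for the 3 members with the largest change the genes of closest pattern. Markers and Notch targets were read as checks of cell type and label. Alternatives covered normalization, the probe set per gene, dim genes, the variance model, array weights, the arrays in the fit, each replicate left out and the replicate number as a block.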

Additional observations from a re-analysis of the deposited data

Results flagged for a closer look

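Between Notch1 forms, 3 of the 19 probe sets of the family stood on opposite sides of vector, every array of one form above and every array of the other below all vector arrays. Over all probe sets 1.81% did so, and since 2 of the 3 belong to IL1A, no test was made of that count. For IL1A, NICD lay below vector and Notch1 L1601P+∆P above it in both probe sets. NICD minus Notch1 L1601P+∆P was -0.90 ± 0.075 for the brighter probe set (limma adjusted p = 3.19e-06 over all probe sets) and -0.56 ± 0.098 for the dimmer one (adjusted p = 0.00189). The step of Notch1 L1601P+∆P above vector was not itself called for either probe set. For IL1R2, NICD lay above vector and full-length Notch1 below it, and the brighter probe set differed by 1.2 ± 0.10 (adjusted p = 2.64e-06), while the step of full-length Notch1 below vector was not called and its nearest array lay almost at the lowest vector array. The dimmer IL1R2 probe set did not share the pattern, as its full-length Notch1 and vector arrays overlapped (-0.026). Both IL1R2 probe sets had means over the 12 arrays (5.53 and 4.94) under the lowest array median of 5.64.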

How the results depend on the processing

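Of 1233 log2 differences of the 10 family genes and of IL1RL1 and IL18R1, recomputed under the alternatives, 1212 kept their side of the threshold (22 of them, called neither way, with another sign), 16 lost their call, 5 gained one and none that was called turned its sign. Of the 16, 14 were IL18 between Notch1 L1601P+∆P and full-length Notch1 and 2 were IL1B between NICD and Notch1 L1601P+∆P. With NICD against vector, 7 genes were called under every alternative tried. Leaving out single replicates gave 12 to 14 called probe sets with NICD against vector, 2 to 3 genes and 3 to 6 probe sets with Notch1 L1601P+∆P against vector, 0 of either with full-length Notch1 against vector, 6 to 7 genes for NICD against Notch1 L1601P+∆P, 7 for NICD against full-length Notch1 and 2 to 3 for Notch1 L1601P+∆P against full-length Notch1. The 6 probe sets came without replicate 3 of Notch1 L1601P+∆P. The 3 probe sets called with Notch1 L1601P+∆P against vector became 5 under cyclic loess, without dim genes, with a trended and robust prior and with array weights, and the cause was not tested. IL18 with Notch1 L1601P+∆P against vector was called with the trended and robust prior (adjusted p = 0.0304), and IL1RN with array weights (0.39, adjusted p = 0.0469).

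Over all genes, the 1012 calls with Notch1 L1601P+∆P against vector became 1616 with the trended and robust prior and 1638 with array weights, and fell to 628 without replicate 1 and 565 without replicate 2 of Notch1 L1601P+∆P. The 735 calls against full-length Notch1 became 1256 and 1371 under the same prior and weights. The 7 calls with full-length Notch1 against vector became 19 with that prior and 3 with only the arrays of the comparison. Cyclic loess moved the share of higher genes among those called to 51.6% (34.6% as deposited) with NICD and to 58.4% (42.3%) with Notch1 L1601P+∆P against vector. Of 228 counts of pathway genes, 14 moved by over 1.5 times. Samples with the same replicate number correlated in their deviations at -0.12 to 0.16, over 0.1 in 1 of 18 pairs, so the numbers were not taken as pairs. With the replicate number as a block, 7, 2 and 0 family genes and 13, 3 and 0 probe sets were called with NICD, Notch1 L1601P+∆P and full-length Notch1 against vector, and IL18 lost its call between the receptor forms (adjusted p = 0.089).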
